A study of Mus musculus with 8 samples.

Results

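The genes described here are 9 immediate early genes: Fos, Fosb, Jun, Junb, Egr1, Nr4a1, Atf3, Ier2 and Dusp1. They were chosen by name with their measured values in oligodendrocytes (white against gray matter, by cluster and genotype) already known, out of 16999 genes listed for both genotypes. They were followed in 15604 oligodendrocytes of 8 single-cell libraries and, for the Rag1-/- libraries, in 7421 microglia, using the cluster names that the authors deposited (8 oligodendrocyte and 5 microglia clusters). Of the 9 genes, 8 or 9 had at least 1 unique molecular identifier (UMI, 1 per captured RNA molecule) in each library and cell type.

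The study asked how lymphocytes bear on the aging of white matter, and each library holds live brain cells (negative for the dead-cell dye SYTOX Blue) of 24-month-old male mice, profiled by 10x Genomics 3' RNA sequencing. The 4 groups were wild-type C57BL/6 gray matter (frontal cortex, 2 libraries), wild-type white matter (corpus callosum, optic tract and medial lemniscus, 2 libraries), Rag1-/- gray matter (1 library) and Rag1-/- white matter (3 libraries). Rag1-/- mice carry the Rag1 null allele Rag-1tm1Mom throughout the body and lack functional B and T cells. The labels give their strain as NOD.129S7(B6)-Rag-1tm1Mom/J and the study's methods give a C57BL/6J background, and which is right was not tested. Tissue of several mice was combined in the wild-type libraries and in the first Rag1-/- gray and white libraries, and the study's list of mice gives the same mice for the gray and white libraries of each wild-type batch and for the first Rag1-/- gray and white libraries. The lone Rag1-/- gray library and Rag1-/- white library 1 are of batch 1 and Rag1-/- white libraries 2 and 3 of batch 2, so in Rag1-/- mice tissue and batch are separated only in batch 1, with 1 library per tissue. Actinomycin D, a blocker of transcription, was present during the dissociation of all libraries.

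Immediate early genes are transcribed within minutes of a stimulus without new protein synthesis, through kinases and factors such as SRF and CREB that are already in the cell. Fos and Fosb proteins pair with Jun and Junb to form the transcription factor AP-1, Atf3 is a stress-induced partner of Jun proteins, and Egr1 and Nr4a1 are a zinc finger factor and an orphan nuclear receptor. Ier2 is a nuclear early-response protein, and Dusp1 is a phosphatase that switches off the MAP kinases that induce the others. The same genes are also known to rise in brain cells while tissue is being dissociated.

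The promoters of 3 of these genes are shown, Fos and Junb because their levels differed most between tissues in oligodendrocytes, and Atf3 because it differed between tissues in microglia. The sequences are the 250 bases before the RefSeq gene start on the strand of the gene, in GRCm38.p6, the build called mm10 in the submitters' processing notes. Fos lies at chr12:85473640-85473889 on the plus strand, Junb at chr8:84978749-84978998 on the minus strand and Atf3 at chr1:191183334-191183583 on the minus strand. Capitals mark TGACG or its reverse complement CGTCA (the short core of a CRE, the site that CREB and ATF factors bind), TATAAA and CCAAT.
Fos: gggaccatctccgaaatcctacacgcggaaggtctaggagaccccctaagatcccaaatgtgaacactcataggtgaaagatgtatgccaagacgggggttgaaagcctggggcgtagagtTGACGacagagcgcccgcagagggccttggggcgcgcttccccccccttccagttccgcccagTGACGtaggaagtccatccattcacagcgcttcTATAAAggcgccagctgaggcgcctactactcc
Junb: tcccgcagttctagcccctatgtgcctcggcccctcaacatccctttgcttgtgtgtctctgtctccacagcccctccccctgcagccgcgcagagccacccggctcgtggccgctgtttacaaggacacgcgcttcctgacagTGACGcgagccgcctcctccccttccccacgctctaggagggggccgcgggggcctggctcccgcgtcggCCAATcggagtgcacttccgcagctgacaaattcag
Atf3: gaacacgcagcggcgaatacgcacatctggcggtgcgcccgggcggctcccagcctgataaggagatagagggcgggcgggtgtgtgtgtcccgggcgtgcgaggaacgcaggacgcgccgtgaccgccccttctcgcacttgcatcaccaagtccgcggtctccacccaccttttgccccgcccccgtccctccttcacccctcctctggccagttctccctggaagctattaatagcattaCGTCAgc
The Fos window holds TGACG at 129 to 125 and at 66 to 62 bases before the start, and TATAAA at 33 to 28. The Junb window holds TGACG at 106 to 102 and CCAAT at 36 to 32 bases before the start, and the Atf3 window holds CGTCA at 7 to 3. Searched on both strands, TGACG is present in 17.8% of 32851 promoter windows of this length (some of these within the full CRE TGACGTCA, 1.55%), CCAAT in 33.8% and TATAAA in 12.4%, so these matches describe the windows and mark no site in use. RefSeq promoters were matched for 7 of the 9 genes, without Ier2 and Egr1.

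Oligodendrocyte libraries held 284 to 4106 cells and 2735825 to 43816134 UMIs, with medians of 8559 to 12622 UMIs per cell. The oligodendrocyte markers Mbp, Mog, Mag, Cldn11 and Mobp were all detected and together made up 10317 to 16392 counts per 1000000 UMIs (CPM) in every library, and microglia markers 58.8 to 573 CPM. Pairs of libraries shared 0 to 15 cell barcodes, at most 0.321% of the smaller library. Rag1 itself was read at 0 to 0.525 CPM in wild-type and 1.15 to 2.44 CPM in Rag1-/- oligodendrocytes, higher in the Rag1-/- libraries. Where these 3' reads lie relative to the part of Rag1 that the allele lacks was not tested, so the values are no check of the labels.

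In oligodendrocytes the 9 genes fell into those read mostly in white matter libraries and those read in both tissues. Fos and Junb were higher in all 5 white libraries than in all 3 gray libraries, Egr1 and Atf3 likewise at much lower levels, and Jun and Nr4a1 were read at similar levels in both tissues. All levels below are CPM of UMIs summed over the cells of a library, so that fewer positive cells and less RNA per cell cannot be told apart in them. Because the genes were listed with these contrasts known, the oligodendrocyte values are a description and carry no test.

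Fos was read at 1.46 and 0 CPM in the wild-type gray libraries (4 and 0 UMIs) and at 22.6 and 32.8 CPM in the white ones (135 and 1436 UMIs). In Rag1-/- mice it stood at 0.837 CPM in the gray library (8 UMIs) and at 20.5, 12.5 and 23.0 CPM in white matter (564, 266 and 930 UMIs). White matter was therefore far above gray matter in both genotypes, 27.7 ± 7.17 against 0.731 ± 1.03 CPM in wild type (SD, n = 2 each) and 18.7 ± 5.51 (SD, n = 3) against 0.837 CPM in the lone Rag1-/- gray library. The ratios of these means were 37.9 and 22.3, and the first rests on 4 UMIs in gray matter. The fitted log2 difference, white minus gray, was 6.65 ± 0.790 (SE) in wild type and 4.49 ± 0.791 in Rag1-/-. The size of the wild-type difference rests on the gray libraries: it was 4.32 without gray library 2 and 12.31 without gray library 1, where no gray Fos UMI is left and the fitted value depends on the prior count. Within mouse pools the ratio of white to gray Fos was 15.5 in wild-type pool 1 and 24.4 in the Rag1-/- pool, and wild-type pool 2 had no Fos UMI in gray matter.

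Junb, a Jun family partner of Fos, followed the same split. It was read at 2.19 and 2.72 CPM in wild-type gray and 16.1 and 26.5 CPM in wild-type white libraries, and at 1.57 CPM in Rag1-/- gray and 16.8, 17.3 and 21.6 CPM in Rag1-/- white libraries. The white to gray ratio of group means was 8.68 in wild type and 11.8 in Rag1-/-, with log2 differences of 3.08 ± 0.322 and 3.57 ± 0.419 (SE). Each of the 3 mouse pools with both tissues had the same direction, with ratios of 7.34, 9.76 and 10.7. Leaving out 1 library at a time kept the Junb difference between 2.63 and 3.37 in wild type and between 3.41 and 3.65 in Rag1-/-.

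**Figure D1:**
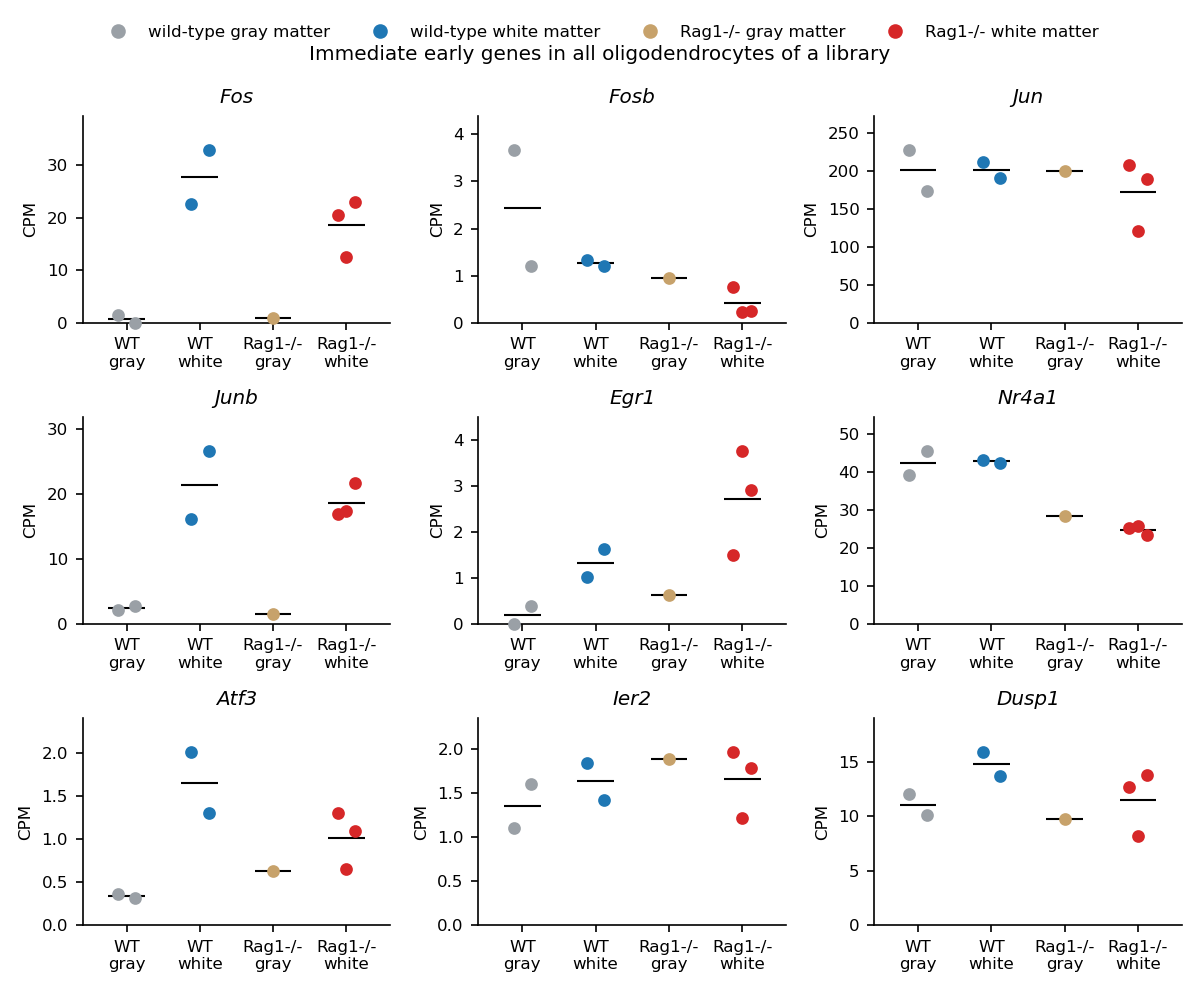
Level of each immediate early gene in all oligodendrocytes of a library, in CPM (linear axis from 0), for the 4 groups; each point is 1 library and each black bar is a group mean. Fos and Junb sit at 12.5 CPM or more in all 5 white matter libraries and below 3 CPM in all 3 gray matter libraries, while Jun and Nr4a1 do not separate the tissues in wild type.

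Egr1 and Atf3 were scarce in oligodendrocytes, yet no gray library reached a white one. Egr1 was read at 0 and 0.400 CPM in wild-type gray, 1.01 and 1.62 CPM in wild-type white, 0.628 CPM in Rag1-/- gray and 1.49, 3.75 and 2.90 CPM in Rag1-/- white libraries. Atf3 stood at 0.366 and 0.320 CPM against 2.01 and 1.30 CPM in wild type, a ratio of 4.83. In Rag1-/- its white libraries, at 1.31, 0.656 and 1.09 CPM, were close to the gray one at 0.628 CPM, and the log2 difference was 0.71 ± 0.724 (SE).

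None of the remaining 5 genes was higher in white matter in both genotypes without overlap. Jun, the common AP-1 subunit, was read at 227 and 174 CPM in wild-type gray and 211 and 190 CPM in wild-type white libraries, with 200 CPM in Rag1-/- gray and 208, 121 and 189 CPM in Rag1-/- white libraries, so the tissues overlapped. Dusp1 was at 11.1 ± 1.40 CPM in wild-type gray and 14.8 ± 1.55 in wild-type white matter (SD, n = 2), and its Rag1-/- white libraries lay on both sides of the gray one. Ier2 stayed between 1.10 and 1.96 CPM in all 8 libraries, and Fosb between 0.234 and 3.66 CPM with its highest value in a gray library.

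Nr4a1 separated the genotypes more clearly than the tissues. It was read at 39.1 and 45.4 CPM in gray and 43.2 and 42.3 CPM in white matter of wild type, and at 28.3 CPM in gray and 25.1, 25.7 and 23.3 CPM in white matter of Rag1-/- mice. The wild-type white mean was 1.73 times the Rag1-/- white mean, a log2 difference (Rag1-/- minus wild type) of -0.74 ± 0.112 (SE), and all 4 wild-type libraries were above all 4 Rag1-/- libraries. The white to gray ratio within mouse pools was 1.11 and 0.931 in wild type and 0.888 in Rag1-/-. Fosb also did not overlap between genotypes in white matter, with means of 1.28 and 0.415 CPM that rest on few UMIs. These 2 of the 9 genes were lower in Rag1-/- without overlap, beside 17.3% of all genes. Genotype coincides with the strain that the labels give, the experiment, the release of Cell Ranger and the gene list, so these cannot be told apart.

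Read against all genes, the counts were as follows. Benjamini-Hochberg adjusted p-values of edgeR's quasi-likelihood test (threshold 0.05) called 1.00% of 13067 genes between wild-type white and gray oligodendrocytes, among them Fos and Junb. With the mouse pool as a block, 12.2% of 11307 genes were called, among them Fos, Junb and Atf3. In Rag1-/- oligodendrocytes 0.436% were called, of the 9 genes Junb only, and between the genotypes in white matter 0.911%, of the 9 genes Nr4a1 only. For the difference of the tissue effect between genotypes the called share was 0% (236 genes at an unadjusted p under 0.05, and 3 by DESeq2), and none of the 9 genes was among them. White libraries lay above gray ones without overlap for 5 of the 9 genes in wild type (Fos, Junb, Egr1, Atf3 and Dusp1) beside 19.1% of all genes, and for 4 in Rag1-/- (the same without Dusp1) beside 32.1%. They lay below without overlap for none of the 9 in wild type, where the share of all genes was not counted. In Rag1-/- they did so for 2 (Fosb and Nr4a1), beside 29.3% of all genes. Since these contrasts were known when the genes were listed, nothing is read from these counts.

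By cluster, Fos and Junb were highest in the aging-related oligodendrocytes (ARO). The authors named this cluster for its enrichment in aged white matter, and describe it by high Serpina3n and C4b. It had 10 or more cells only in the 5 white libraries (107 to 886 cells). Fos was read at 56.6 and 102 CPM in ARO of the wild-type white libraries and at 101, 129 and 102 CPM in those of Rag1-/-. In all other oligodendrocytes of the same libraries it stood at 12.8, 13, 8.42, 3.92 and 8.07 CPM in that order. ARO were thus above the rest in each of the 5 libraries, by 4.43 to 32.8 times. Junb was read at 47.6 and 93.4 CPM in wild-type and 104, 186 and 107 CPM in Rag1-/- ARO, which was 6.88 to 38.2 times the rest. The clusters were drawn by the authors on expression that could include these genes, so these are descriptions.

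ARO made up 6.99 to 21.7% of the oligodendrocytes and 6.84 to 22.5% of all oligodendrocyte UMIs of a white library. They held 56.3, 69.1, 64.2, 70.7 and 70.5% of its Fos UMIs and 66.7, 78.2, 81.0, 73.7 and 78.8% of its Junb UMIs. The ARO share of Jun UMIs was 8.66 to 28.6%, and that of Nr4a1 13 to 39.5%. Most Fos and Junb RNA of white matter oligodendrocytes was therefore in a cluster that held at most 21.7% of the cells, which was not so for Jun or Nr4a1.

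Outside ARO a lower Fos level remained in white matter. In the Oligo2c cluster, present with 10 or more cells only in white libraries, Fos was read at 33.2 and 26.3 CPM in wild type and 21.0, 14.2 and 32.2 CPM in Rag1-/-, and in interferon-responsive oligodendrocytes (IRO, 17 to 123 cells) at 56.4 and 16.1 CPM and at 24.9, 10.3 and 11.8 CPM. Clusters with cells of both tissues can be compared, within the limits of small gray sets. Oligo1a had no Fos UMI in any of the 3 gray libraries (47, 146 and 152 cells). Its white libraries had 1.66 to 17.4 CPM, the lowest from 1 UMI. Oligo2a had none in gray (11, 35 and 38 cells) and 3.09 to 14.5 CPM in white ones. At these cell numbers, a gray level like the lowest white ones could also give no UMI. Oligo1b, with the most gray cells (73, 438 and 456), stood at 1.32, 0 and 0.731 CPM in gray and 1.87 to 7.58 CPM in white libraries. Oligo1c stood at 0, 0 and 2.46 CPM in gray and 2.82 to 8.50 CPM in white libraries. Gray values of both rest on at most 3 UMIs per library. In Oligo2b the tissues overlapped, since the first wild-type white library had no Fos UMI there and the first wild-type gray library 2.73 CPM. With only the Oligo1 and Oligo2 clusters summed, the log2 difference of Fos was 5.70 in wild type and 2.98 in Rag1-/-, against 6.65 and 4.49 with all clusters, and that of Junb was 1.27 and 1.54, against 3.08 and 3.57. For Egr1 it was 1.21 and 0.44, against 2.16 and 2.11, and for Atf3 0.90 and -0.10, against 2.24 and 0.71. In these clusters of wild type, white lay above gray without overlap for 3 of the 9 genes (Fos, Junb and Atf3), beside 17.6% of all genes. White lay below gray without overlap for 1 (Nr4a1). No share of all genes was counted in that direction, so nothing is read from this count. The log2 difference of Nr4a1 was -0.39 in wild type and -0.42 in Rag1-/- there, against 0.01 and -0.18 with all clusters.

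Nr4a1 had another order of clusters. It was high in ARO (75.9 and 73.3 CPM in wild type, 46.2, 48.6 and 47.2 CPM in Rag1-/-) and in Oligo1a (62.0 to 71.8 CPM in wild type, 38.9 to 46.5 CPM in Rag1-/-), with ARO above Oligo1a in each of the 5 white libraries, and was near absent in Oligo2a (0 to 2.25 CPM) and Oligo2c (0 to 8.64 CPM). The tissues overlapped in Oligo1a within each genotype, while in Oligo2b the gray libraries, at 32.8, 37.1 and 17.5 CPM, were above all white ones at 5.41 to 15.1 CPM. Jun was read at 153 to 268 CPM in ARO and 81.9 to 211 CPM in Oligo2a. Atf3 in ARO was at 3.11 to 5.95 CPM, 4.40 to 10.2 times the other oligodendrocytes. Egr1 in ARO ranged from 0.744 to 50.0 CPM, the highest value coming from the second Rag1-/- white library alone (73 UMIs), where ARO held 91.2% of its Egr1 UMIs.

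**Figure D2:**
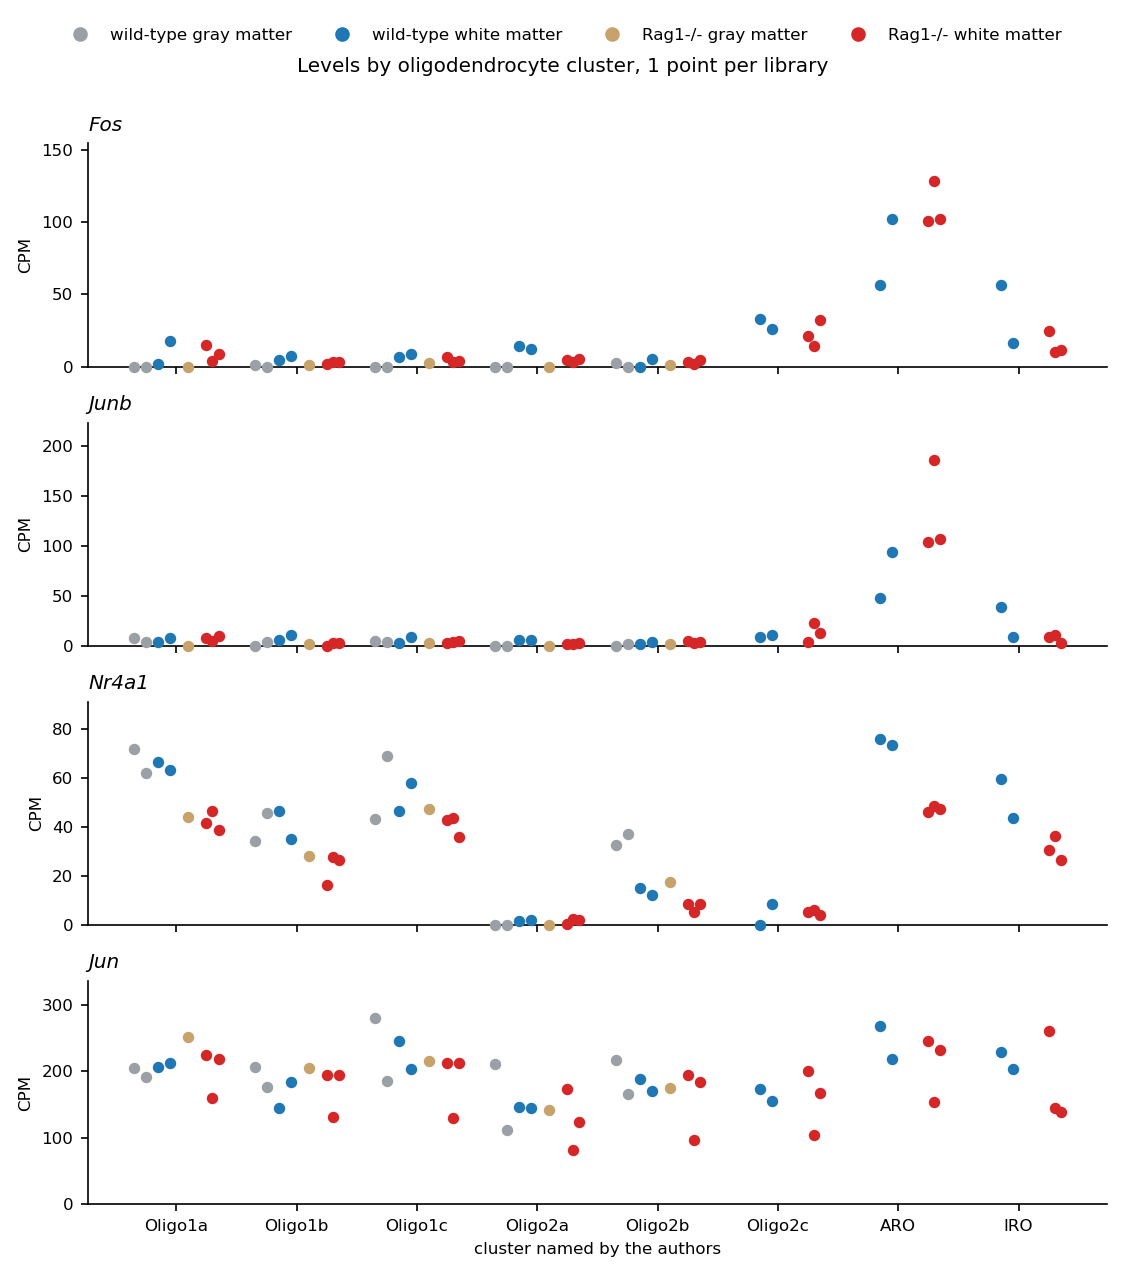
Fos, Junb, Nr4a1 and Jun in the 8 oligodendrocyte clusters, in CPM (linear axes from 0), with 1 point per library that had at least 10 cells in the cluster, coloured by group. Fos and Junb points of ARO stand above those of most other clusters (Fos 56.6 to 129 CPM), whereas Nr4a1 is high in ARO, Oligo1a and Oligo1c and near 0 in Oligo2a.

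The shares of positive cells gave the same picture at equal depth. Each cell with at least 3000 UMIs was thinned to that number, and cells with fewer were left out. Of the ARO kept, 15.2, 17.8, 19.0, 16.7 and 19.4% had a Fos UMI in the 5 white libraries (exact 95% Clopper-Pearson intervals within 8.97 to 24.8%). Without thinning, 29.2 to 38.3% of all ARO had one. Of all oligodendrocytes kept, 2.28 to 6.31% had a Fos UMI after thinning in white libraries and 0.369, 0 and 0.381% in gray ones (0 of 1108 cells allows up to 0.271%, taken as 3 cells). In microglia of the Rag1-/- libraries, another cell type of the same suspensions, the shares were 0.241% in gray and 0.417, 0 and 0.282% in white matter (0 of 548 cells allows up to 0.547%). Intervals and limits cover counting error only.

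A Fos UMI and a Junb UMI were often read in the same ARO cell. In the 3 white libraries with most ARO, at 3000 UMIs per cell, 43.9, 48.8 and 39.0% of Fos-positive cells also had a Junb UMI (157, 80 and 118 Fos-positive cells), against 12.4, 12.9 and 12.9% of the other ARO. For Jun the same shares were 39.5, 45.0 and 56.8% against 43.1, 48.2 and 42.7%, with no direction shared by the 3 libraries. As levels that free RNA could give, 0.718, 0.417 and 0.282% of microglia (microglia-like cells in wild type) in these libraries had a Fos UMI and 1.62, 0.850 and 0.775% of Oligo2a cells a Junb UMI at the same depth. Free RNA itself was not measured. Cells of 1 library are not replicates, and no test was made.

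The genes whose level followed the mean of the 9 over the oligodendrocyte sums of the 8 libraries most closely were Masp1 (Pearson's r of log2(CPM + 1) 0.997), Anxa2 (0.987), Pdgfa (0.986), Fosl2 (0.986) and Snx10 (0.986), out of 11186 genes compared. Masp1, a complement-activating protease, was read at 1.10 and 0.0800 CPM in wild-type gray, 15.6 and 21.3 CPM in wild-type white, 0.314 CPM in Rag1-/- gray and 9.21, 3.94 and 9.56 CPM in Rag1-/- white libraries. The libraries fall into gray and white ones, so these correlations mainly describe that split, and they carry no p.

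Signs of handling and of other cells were read in the same oligodendrocyte sums. Genes known from ex vivo activation of dissociated brain cells (the 9 genes left out) summed to 4474 to 4955 CPM in gray and 4538 to 5212 CPM in white libraries, and heat shock genes to 6518 to 7952 and 6579 to 7459 CPM. Hspa1a and Hspa1b, the inducible heat shock genes, summed to 13.2, 37.4 and 49.7 CPM in gray and to 10.1 to 59.1 CPM in white libraries, and mitochondrial genes took 3.95 to 7.35% against 3.51 to 5.57%. The gray and white ranges overlapped for all 4 measures. Within pools, white was above gray for the ex vivo list in all 3 (5212 against 4734, 4780 against 4474 and 5009 against 4955 CPM), and for Hspa1a and Hspa1b only in the Rag1-/- pool (59.1 against 49.7 CPM). The mitochondrial share was lower in white than in gray matter in all 3 pools (3.51 against 3.95, 5.28 against 7.35 and 4.99 against 6.76%). The astrocyte markers were at 142 to 182 CPM in gray and 98.2 to 127 CPM in white libraries, and neutrophil markers reached 98.3 and 84.0 CPM in the libraries of the first wild-type pool. In ARO the 5 macrophage markers (Mrc1, Pf4, Ms4a7, Cd163 and F13a1) were all at 0 in 3 of 5 libraries and summed to at most 0.835 CPM. Microglia markers, read in every oligodendrocyte library, are not given for ARO here, so nothing is read about microglial RNA. Atf3 was at 43.4 to 79.6 CPM in white matter microglia of Rag1-/-, well above the 0.656 to 2.01 CPM of white oligodendrocyte libraries. The part of handling or of other cells in the oligodendrocyte levels was not tested.

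In microglia of the Rag1-/- libraries, Egr1 and Atf3, which also lay higher in white than in gray oligodendrocytes, were read higher in all white libraries than in the gray one. Fos was near absent in both tissues, and Junb was abundant in both. The 4 libraries held 707 to 3617 microglia with medians of 5297 to 6608 UMIs per cell, and microglia markers summed to 26586 to 29994 CPM. With 1 gray library, the spread in these tests comes from the 3 white ones, and white libraries 2 and 3 also differ from the gray one in batch.

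Egr1 was read at 0.867 CPM in gray matter (9 UMIs) and at 21.8, 18.9 and 14.1 CPM in white matter microglia, a ratio of 21.1 between 18.3 ± 3.92 CPM (SD, n = 3) and the gray library. Its log2 difference was 4.62 ± 0.428 (SE). With 0.867 CPM in gray matter, under the low-count filter of 1.10 CPM, Egr1 entered the test only through the white libraries, as did Fos and Nr4a1, so its call supports nothing and no p is given. Atf3 was read at 11.9 CPM in gray and 79.6, 43.4 and 56.1 CPM in white matter, a ratio of 5.00, with a log2 difference of 2.58 ± 0.360 and an edgeR adjusted p of 0.0104. It was called in a contrast where 3.46% of 12050 genes were. With the homeostatic clusters alone the log2 difference was 1.76 ± 0.922 for Egr1, and 1.08 ± 0.275 for Atf3, which was not called there (adjusted p 0.164). The mix of the homeostatic clusters also differed between tissues. The gray library held 1634 Homeostatic1 and 29 Homeostatic2 cells, and the white ones 785 and 1884, 248 and 225, and 577 and 459. Within batch 1, white library 1 stood at 25.2 times the gray library for Egr1 and 6.66 times for Atf3, with no test at 1 library per tissue. Atf3 was called under the other 6 of 7 alternatives. Of these, the fit without white library 1 (log2 difference 2.28) sets gray matter of batch 1 against white matter of batch 2. Tissue and batch coincide there, so its call adds nothing.

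The other genes tested did not pass in microglia. Junb was read at 119 CPM in gray and 167, 108 and 145 CPM in white matter (log2 difference 0.48 ± 0.235, adjusted p 0.387), and Jun at 112 against 84.2, 60.7 and 82.2 CPM (-0.31 ± 0.194, adjusted p 0.498). Ier2, at 6.36 against 17.1, 9.14 and 11.6 CPM, had a log2 difference of 1.27 ± 0.380 and an adjusted p of 0.146. Jun, Junb and Ier2 were each called without white library 1 (adjusted p 0.00271, 0.0315 and 0.0118), where the gray and white libraries are of different batches and 2899 genes were called instead of 417. Within batch 1 their white to gray ratios were 0.754, 1.40 and 2.68. Fos stood at 0.867 CPM in gray and 1.85, 0.416 and 1.41 CPM in white matter. Dusp1 was at 2.22 to 3.93 CPM, Nr4a1 at 0.289 to 1.92 CPM and Fosb, not tested, at 0 to 0.578 CPM. White libraries lay above the gray one without overlap for 5 of the 9 genes (Egr1, Nr4a1, Atf3, Ier2 and Dusp1), beside 16.2% of the genes tested. They lay below it for 2 (Jun and the untested Fosb), beside 55.9%.

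Most Egr1 and Atf3 UMIs of white matter microglia were in white matter-associated microglia (WAM), the cluster that made up 1.56% of microglia in the gray library and 22.1, 17.1 and 17.1% in the white ones. Egr1 in WAM was read at 71.5, 73.7 and 58.5 CPM in white matter and at 14.9 CPM in the 27 gray WAM, from 3 UMIs. In Homeostatic1 microglia it was at 0.611 CPM in gray and 0.995 to 3.85 CPM in white matter. Atf3 in WAM stood at 89.5 CPM in gray and 227, 125 and 178 CPM in white matter, against 9.98 and 10.5 to 19.2 CPM in Homeostatic1 microglia. The interferon-responsive microglia (IRM, 13 to 37 cells in the 3 libraries with 10 or more) also held both genes. Atf3 stood there at 65.8 CPM in gray and 77.3 and 228 CPM in white libraries 1 and 2, and Egr1 at 0, 11 and 85.3 CPM, the last from 9 UMIs and above every WAM value. WAM held 90.7, 84.6 and 94.5% of Egr1 UMIs and 79.1, 62.7 and 72.4% of Atf3 UMIs of the white libraries, with 21.7 to 27.7% of all microglia UMIs. After thinning to 3000 UMIs, 28.9, 20.6 and 25.0% of white matter WAM had an Atf3 UMI and 8.42, 8.82 and 5.98% an Egr1 UMI. The authors drew the microglia clusters, too, on expression that could include these genes, so the cluster values are descriptions.

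Junb differed less between WAM and the homeostatic clusters than Egr1 and Atf3 did. It was read at 209 CPM in gray and 187 to 266 CPM in white matter WAM, at 117 and 100 to 135 CPM in Homeostatic1, and at 94.2 and 13 to 59.8 CPM in the Activated cluster. Fos was at 0 to 5.54 CPM in white matter WAM, from at most 34 UMIs, and at 9.94 CPM in gray WAM from 2 UMIs. The macrophage markers, which could mark other myeloid cells, summed to 4.97 CPM in gray and 52.6 to 113 CPM in white matter WAM, and their part in the Egr1 and Atf3 levels was not tested.

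**Figure D3:**
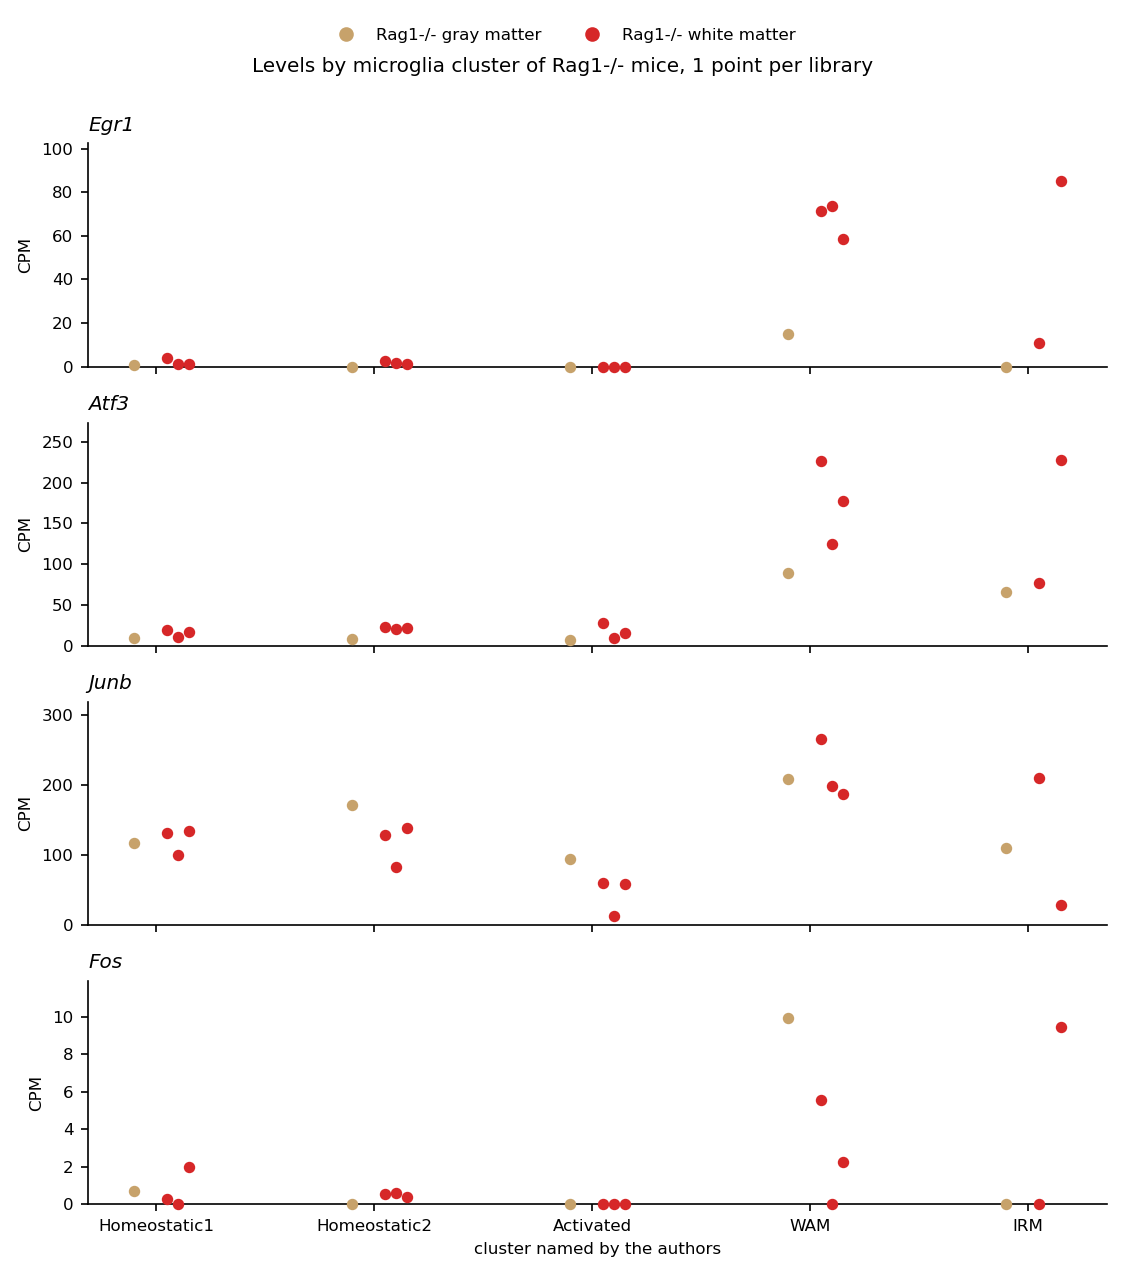
Egr1, Atf3, Junb and Fos in the 5 microglia clusters of the Rag1-/- libraries, in CPM (linear axes from 0), with 1 point per library that had at least 10 cells in the cluster; gray and white matter are coloured apart. Egr1 and Atf3 are highest in WAM and in the smallest set of interferon-responsive microglia (13 cells), and Junb is read in every cluster.

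No wild-type cell of these libraries carries a deposited microglia cluster name, so 1086 wild-type cells were taken from clusters drawn without the 9 genes and called microglia-like from their markers. Atf3 was again higher in white matter, at 62.0 and 54.0 CPM against 19.0 and 18.7 CPM in gray matter, a ratio of 3.08 (log2 difference 1.83 ± 0.206, edgeR adjusted p 0.00330). It was called under 8 of 9 alternatives and lost without gray library 2 (adjusted p 0.0517). Egr1 had no UMI in either gray library and 6 and 97 UMIs in the white ones (4.23 and 16.4 CPM), at least 18.5-fold higher against a floor of 3 counts over the gray group. It too entered the test only through the white libraries, so its call supports nothing. In this contrast 5.31% of 10407 genes were called. Since the genes were listed with earlier results of these data known, the Atf3 call is no independent evidence here either.

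With the mouse pool as a block, 15.9% of genes were called in the microglia-like cells, and Atf3 (adjusted p 6.3e-06) and Junb (log2 difference 0.40 ± 0.128, adjusted p 0.0412) were among them. Without the block, Junb was at 127 and 133 against 159 and 141 CPM with an adjusted p of 0.182. White libraries were above gray ones without overlap for 4 of the 9 genes (Fos, Junb, Egr1 and Atf3), beside 12.5% of the genes tested. They were below them for 1 (Jun), beside 45.7%. Fos itself was at 0 and 0.949 CPM in gray and 1.41 and 5.75 CPM in white matter, under the low-count filter with all 4 libraries. It passed the filter, through white matter only, without white library 1 (log2 difference 3.12, edgeR adjusted p 0.0108) and without gray library 1 (2.27, adjusted p 0.574), so that the call in the first supports nothing.

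The tissue difference was then compared between cell types of the same libraries. This uses the oligodendrocyte values that were known when the genes were listed, so it is no independent evidence. In Rag1-/-, the white minus gray difference in microglia minus that in oligodendrocytes was -3.54 ± 0.845 (log2, SE) for Fos (adjusted p 0.165) and -3.10 ± 0.490 for Junb (adjusted p 0.0705), and 2.57 ± 1.64 for Egr1 (adjusted p 0.642). None of the 9 genes was called by edgeR, where 0.287% of 13960 genes were, while DESeq2 called Fos (adjusted p 0.0348) and Junb. Over the alternatives the adjusted p ranged from 0.00653 to 0.392 for Fos, past the threshold in 3 of 6, and from 2.7e-15 to 0.255 for Junb, past it in 4 of 6. In wild type none of the genes was called, where 0.0411% of 12171 genes were, and Junb had a difference of -2.66 ± 0.370 (adjusted p 0.119, past the threshold in 3 of 7 alternatives).

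Astrocyte-like cells showed Fos in gray matter, where oligodendrocytes had almost none. This comparison was added after the levels were seen. Fos was read at 42.7 and 90.3 CPM in wild-type gray libraries (59 and 160 cells) and at 95.8 CPM in the Rag1-/- gray library (633 cells, 237 UMIs), against 31.9, 33.7 and 13.3 CPM in Rag1-/- white libraries (125, 222 and 372 cells). The gray library was thus above all 3 white ones in Rag1-/-, but the log2 difference of -1.99 ± 0.426 did not pass (edgeR adjusted p 0.409, range over alternatives 1.4e-05 to 1.000). No gene was called in this contrast (0% of 10545 genes, 951 at an unadjusted p under 0.05 and 7 by DESeq2), while 53 genes were called without a filter and 1015 without white library 1. The difference of tissue effects, astrocyte-like cells minus oligodendrocytes, was -6.39 ± 0.721 for Fos with an adjusted p of 0.0122, where 0.0226% of 13261 genes were called (3 genes, and 436 without white library 1). This contrast takes in the oligodendrocyte values for which Fos was listed and was made after the levels were seen, so it is a description and no evidence of a difference between cell types. In the same astrocyte-like cells of Rag1-/- mice, Dusp1 and Ier2 were also read higher in the gray library than in the white ones. Dusp1 stood at 62.7 CPM in gray and 19.1, 35.9 and 23.6 CPM in white libraries (log2 difference -1.21 ± 0.338, edgeR adjusted p 0.476, and 0.00676 without white library 1), and Ier2 at 10.5 against 6.38, 1.09 and 5.91 CPM (-1.32 ± 0.912, adjusted p 0.713). Ier2 passed the low-count filter only through the gray library, so its test supports nothing. Atf3 went the other way, with 0 CPM in gray and 25.5, 2.18 and 1.48 CPM in white libraries (8, 2 and 2 UMIs), and did not pass the low-count filter. White libraries lay below the gray one without overlap for 4 of the 9 genes (Fos, Fosb, Ier2 and Dusp1), beside 24.9% of the genes tested. They lay above it for 1 (Atf3), beside 25.1%. Fosb rests there on 1 UMI in the gray library, with 0 in the white ones. Fosb and Atf3 were not themselves among the genes tested. Junb, at 33.5 CPM in gray and 57.4, 29.4 and 14.8 CPM in white libraries, overlapped between the tissues (-0.25 ± 0.565, adjusted p 0.933). Astrocyte-like cells had medians of 2104 to 6293 UMIs, lower than oligodendrocytes.

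**Figure D4:**
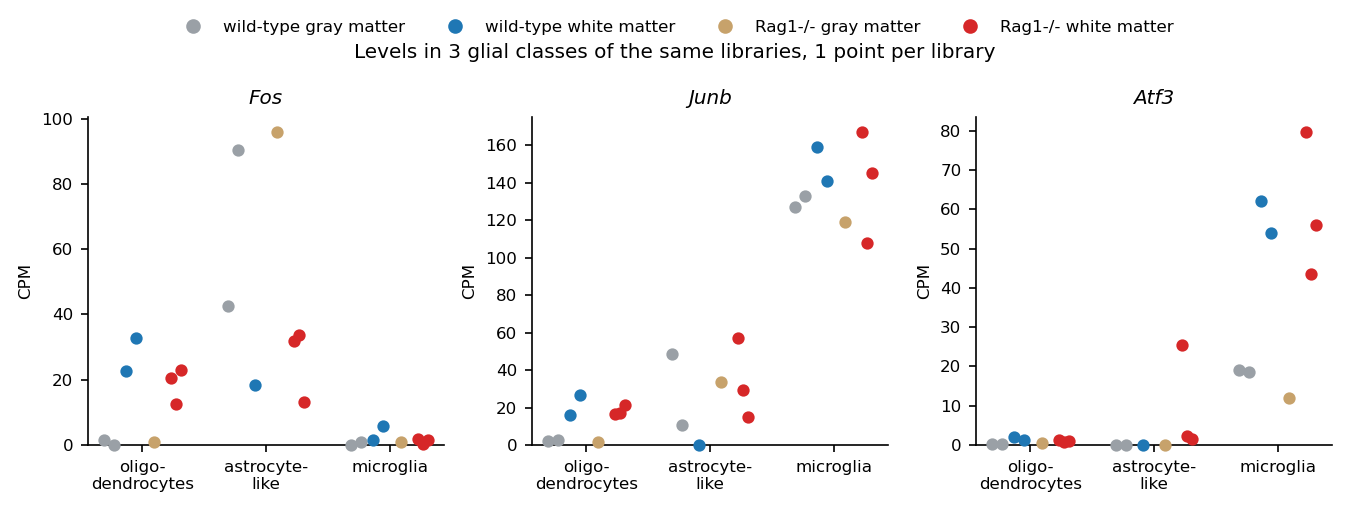
Fos, Junb and Atf3 in oligodendrocytes, astrocyte-like cells and microglia (microglia-like cells in wild type) of the same libraries, in CPM (linear axes from 0), 1 point per library, coloured by group. Fos separates white from gray libraries upward in oligodendrocytes and lies higher in gray than in white libraries in astrocyte-like cells, while Atf3 reaches 43.4 CPM or more in all white matter microglia samples and 11.9 to 19.0 CPM in the gray ones.

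Related genes were read from lists chosen with earlier results of these data known, so their counts and adjusted p-values are no independent evidence. Of the other AP-1 genes, 1 of 9 tested was called in wild-type oligodendrocytes and 1 of 9 in Rag1-/-, Fosl2 in both, with list medians of 0.13 and -0.15 beside -0.01 and 0.02 over all genes. Fosl2, a Fos family member, was read at 0.366 and 0.160 CPM in wild-type gray, 8.38 and 8.44 CPM in wild-type white, 0.105 CPM in Rag1-/- gray and 3.16, 2.48 and 4.71 CPM in Rag1-/- white libraries, with adjusted p of 0.00667 and 0.0395. Of 22 feedback and other early-response genes, Socs3, an inhibitor of cytokine signalling, was called higher in both genotypes. It stood at 0 to 0.366 CPM in the 3 gray and 9.14 to 27.5 CPM in the 5 white libraries (adjusted p 0.0120 and 0.0444). Fosl2 and Socs3 passed the low-count filter only through the white libraries, so their calls support nothing. Arc, an activity-regulated gene of neurons, was called lower in wild-type white matter, at 47.9 and 47.4 against 27.2 and 26.7 CPM (log2 difference -0.81 ± 0.152, adjusted p 0.0483). No gene was called among 8 other immediate early transcription factors, 17 upstream kinases and factors, 14 ex vivo activation genes and 12 heat shock genes in either genotype, and none of any list between the genotypes in white matter.

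The lists were read in Rag1-/- microglia beside 3.46% of all genes called there, against 1.00 and 0.436% in oligodendrocytes of wild type and Rag1-/-, and the counts are not compared between cell types. Of 10 other immediate early transcription factors, 3 rose in white matter (Bhlhe40, Egr2 and Klf2), with a list median of 0.83 beside 0.02 over all genes. Egr2, a close relative of Egr1, was read at 0.771 CPM in gray and 7.22, 5.40 and 5.38 CPM in white matter (log2 difference 3.20, adjusted p 0.0144). Maff and Atf5 rose among 12 other AP-1 genes, Gadd45b and Nfkbiz among 22 feedback genes, none of 17 upstream genes and none of 11 heat shock genes. Of 18 genes known from ex vivo activation, 4 rose (Ccl4, Ccl3, Klf2 and Nfkbiz, of which the last 2 stand in 2 lists each). The chemokine genes Ccl4 and Ccl3 were at 15.6 and 17.8 CPM in gray, 381 to 419 and 250 to 327 CPM in white matter (adjusted p 3.2e-05 and 2.9e-04). Of the genes named here, Bhlhe40, Egr2, Maff and Gadd45b were under the low-count filter in gray matter and entered the test only through the white libraries, so that their calls support nothing.

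In wild-type microglia-like cells the list counts stand beside 5.31% of all genes called. There Klf2 and Bhlhe40 again rose (2 of 9 tested, list median 0.63 beside -0.01), as did Atf5 (1 of 11), and Klf2, Ccl3 and Ccl4 of 14 ex vivo activation genes. Of 9 heat shock genes, Hsp90ab1 and Hspe1 rose there (log2 differences 0.66 and 0.62, adjusted p 0.0360 and 0.0461). None of 19 feedback and 17 upstream genes was called. Klf2, Bhlhe40 and Atf5 entered this test only through the white libraries. Summed over the list, ex vivo activation genes were at 2003 CPM in gray and 1905 to 2253 CPM in white matter microglia of Rag1-/-, and at 2107 and 1947 against 1691 and 2018 CPM in wild-type microglia-like cells. Heat shock genes summed to 2449 CPM in gray and 2273 to 2650 CPM in white matter microglia of Rag1-/-, and to 2146 and 2394 against 2584 and 2949 CPM in wild type, where white matter was above gray matter. The mitochondrial share was higher in white matter, at 2.63, 2.91 and 3.08% against 2.47% in microglia of Rag1-/-, and at 1.62 against 1.40% and 3.46 against 3.31% within the wild-type pools. The median log2 difference of the ex vivo list was 0.22 beside 0.02 over all genes in microglia of Rag1-/- (12 of 18 genes above 0) and 0.25 beside -0.01 in wild-type microglia-like cells (10 of 14), and 0.15 beside -0.01 and 0.28 beside 0.02 in oligodendrocytes of wild type and Rag1-/-. The summed level of the list overlapped between the tissues while its median was above that of all genes. The sums include Ccl3 and Ccl4. In Rag1-/- these stood at 17.8 and 15.6 CPM in gray and at 250 to 327 and 381 to 419 CPM in white matter. In wild type Ccl3 was at 19.8 and 40.6 against 92.4 and 133 CPM, and Ccl4 at 33.6 and 68.5 against 95.9 and 160 CPM. Without both, the rest of the list summed lower in every white than in every gray library of each genotype. The part of handling in the Egr1 and Atf3 levels was not tested.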

How the data were processed

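Single-cell libraries of 24-month-old wild-type and Rag1-/- brain (8 in all) were analysed from the UMI counts per cell and gene that the authors deposited as unnormalized matrices. The authors aligned the reads with Cell Ranger (version 4 and build mm10 in the submitters' notes, while the study's methods give a different release for each experiment), removed cells with few genes or high mitochondrial content and cells above UMI limits that differed between experiments, and clustered integrated data. Their cluster names were used for oligodendrocytes (15604 cells) and Rag1-/- microglia (7421 of 7430 named cells were found in the count tables). For 222 oligodendrocytes no match was found in the tables of all cell types. A further 8171 named microglia belong to another series and were not used. No unassigned column of per-sample values was present (0).

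The 9 genes and all gene lists were chosen with earlier results of these data known. Counts were summed per library and cell set of at least 10 cells. Differences were tested with edgeR 4.0.16 (R 4.3.3; filterByExpr, TMM, quasi-likelihood test, Benjamini-Hochberg threshold 0.05 over all genes tested), first checked on simulated counts, with all 8 oligodendrocyte libraries sharing 1 estimate of spread. The SE given with an edgeR log2 difference is its absolute value divided by the square root of the F statistic. It is approximate where UMIs are few. DESeq2 1.42.0, another scaling, no filter, each library left out, restricted clusters and a UMI limit of 20000 were the alternatives. Cells without a deposited name were clustered here (2000 variable genes without the 9, 30 components, 15 neighbours, Leiden resolution 1) and named from marker lists (1 marker is not reported here). No doublet caller was run. Shares of cells were taken after thinning to 3000 UMIs, and cells with fewer were left out. They have exact 95% Clopper-Pearson intervals, and a share of 0 was given the limit of 3 cells of the total. Named genes are the 9, up to 3 called genes per list and direction, and the 5 genes most correlated with the mean of the 9. The study's list of mice gives the gray and white wild-type libraries of a batch the same mice, and their residuals correlated (0.605 in oligodendrocytes, 0.286 in microglia-like cells), so values with the pool as a block stand beside results where they change a call. Libraries are pools or single mice, and p-values measure the spread between these few libraries.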

Additional observations from a re-analysis of the deposited data

Results flagged for a closer look

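For Fos, the white minus gray difference in Rag1-/- mice had opposite signs in astrocyte-like cells and oligodendrocytes, and the test of the difference itself passed (log2 difference -6.39 ± 0.721, SE, edgeR adjusted p 0.0122). The comparison was chosen after the levels had been seen, and Fos was among the genes listed because of its oligodendrocyte levels, so the test is no independent evidence. The gray side is a single library in both cell types.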

How the results depend on the processing

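Of 298 alternatives for the 9 genes outside oligodendrocytes, 256 kept direction and side of the threshold, 21 passed it newly, 5 fell short of it and 16 changed sign, none of them of a called value. In oligodendrocytes 26 of 458 moved by more than the standard error and 19 changed sign, again of no called value, among them Atf3 in Rag1-/- (0.71 to -0.10 in the Oligo1 and Oligo2 clusters alone), Junb between genotypes (-0.19 to 0.26 without wild-type white 2) and the genotype difference of the Fos tissue effect (-2.16 to 0.16 without wild-type gray 2). Outside oligodendrocytes, leaving out 1 library put the log2 difference in microglia-like cells at -0.18 to 1.36 for Ier2 and -0.35 to 1.43 for Dusp1, and in astrocyte-like cells at -0.21 to 0.18 for Jun, -0.69 to 0.25 for Junb and -0.76 to 0.09 for Nr4a1. For microglia-like cells minus oligodendrocytes it gave -9.06 to 4.22 for Fos, -0.44 to 0.02 for Jun, -1.71 to 2.56 for Nr4a1, -0.66 to 1.36 for Ier2 and -0.68 to 0.89 for Dusp1 (-0.07 without a filter), and for astrocyte-like cells minus oligodendrocytes -0.41 to 0.34 for Nr4a1 (-0.02 by DESeq2). Counts of called genes also depended on the processing, and the cause was not tested. With DESeq2 in place of edgeR the count went from 131 to 282 (wild-type oligodendrocytes), 57 to 208 (Rag1-/- oligodendrocytes), 119 to 195 (genotypes), 0 to 3 (tissue effect between genotypes), 40 to 265 (microglia minus oligodendrocytes, Rag1-/-) and 5 to 169 (the same in wild type). Without a filter it was 140 for Rag1-/- oligodendrocytes, 1326 instead of 553 for microglia-like cells, and 157 and 110 for the differences between cell types, which another scaling (RLE) put at 67 and 1. With the replicate block (mouse pool), 1374 genes were called in wild-type oligodendrocytes and 1653 in microglia-like cells, and the pairing changed calls of the 9 genes only for Atf3 in oligodendrocytes and Junb in microglia-like cells. Restricting wild-type oligodendrocytes to the Oligo1 and Oligo2 clusters put 1 of the 9 genes (Nr4a1) below gray matter without overlap, against 0 with all clusters. The share of all genes was not counted in that direction, so nothing is read from this change. In the Oligo1 and Oligo2 clusters alone 79 genes were called in wild type and 3 rather than 5 of the 9 genes lay above gray matter without overlap (beside 17.6 and 19.1% of all genes), and in homeostatic microglia alone 69 genes instead of 417 were called.

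Leaving out 1 library at a time gave 2 to 142 called genes in wild-type oligodendrocytes (2 without gray 2, 37 without white 2, 56 without gray 1 and 85 without Rag1-/- white 2) and 16 to 264 in Rag1-/- oligodendrocytes (16 without white 2, 29 without white 3, 264 without white 1, and 37 and 88 without wild-type gray 2 and white 1). It gave 80 to 137 between the genotypes and 0 to 4 for the tissue effect between genotypes (2 without wild-type gray 1, 4 without Rag1-/- white 1). For Rag1-/- microglia it gave 170 to 2899 (170 without white 2, 2899 without white 1), and for microglia-like cells 103 to 1392 (103 without gray 2, 142 without gray 1, 1106 without white 2 and 1392 without white 1). For microglia minus oligodendrocytes it gave 0 to 705 in Rag1-/- (0 without white 2, 464 without white 3 and 705 without white 1) and 0 to 292 in wild type (0 without either gray library, 1 without white 2 and 292 without white 1). In astrocyte-like cells 0 genes were called (7 by DESeq2, 53 without a filter, 1015 without white 1), and for their difference from oligodendrocytes 3 (10 by DESeq2, 118 without a filter, 436 without white 1, 8 without white 2 and 51 without white 3). Leaving out the lone Rag1-/- gray library gives no value for the Rag1-/- tissue contrasts. The share of Fos-positive ARO in wild-type white library 2 was 17.8% at 3000 UMIs, 14.4% at 2000 and 38.3% without thinning. Depth limits Egr1, Fosb, Atf3 and Ier2 in oligodendrocytes, and Fos in microglia, which rest on few UMIs per library.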

Other observations

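Fos was also read in smaller cell sets of the same libraries, in no comparison above. In OPC-like cells of Rag1-/- mice (23 to 32 cells per library) it stood at 48.9 CPM in gray and 35.2 and 39.8 CPM in white matter. In neutrophil-like cells (11 to 38 cells) it was the highest of all sets read, at 1834 CPM in Rag1-/- gray, 296 and 1422 CPM in Rag1-/- white and 98.3 and 184 CPM in wild-type white matter.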
